A study of Mus musculus with 2 samples.

Results

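The miRNAs described here are those that mark red blood cells and their precursors (miR-451a, miR-144, miR-486a and miR-486b) and the hepatocyte miRNA miR-122. The members were all mature entries of these 5 names, both arms and all copies included, which came to 7 of the 1080 mature entries among 1147 entries in all. The deposited names were mmu-miR-451a, mmu-miR-144-3p, mmu-miR-144-5p, mmu-miR-486a-5p, mmu-miR-486b-3p, mmu-miR-122-5p and mmu-miR-122-3p, and the prefix is left out below. The 5 names were selected on their WT and KO values in these same 2 libraries, so levels and KO/WT ratios are a description and carry no test. Small RNA was sequenced from the peeled muscle layer of the jejunum (tunica muscularis) of C57BL/6 mice aged 15 days. In *Dnmt1*-KO, *Dnmt1*, the enzyme that copies DNA methylation onto new strands, was deleted by *Cre* under the control of the *Myh11* promoter, which is active in smooth muscle. *Dnmt1*-WT carried the same *Cre*-eGFP transgene with *Dnmt1* intact. Both samples carry the same strain label, which names a Tg(Myh11-cre,-EGFP) transgene and the floxed allele Dnmt1lox/lox, and the description given for *Dnmt1*-WT repeats that of the mutant. Groups follow the genotype label, and small RNA offers no check of the deletion. There was 1 library per genotype, males and females are listed for both, and whether their RNA was pooled is not given in the sources used here. The muscle layer also holds cells in which the *Myh11* promoter is silent, blood cells among them, and in such a bulk sample fewer cells of a type and less RNA per cell cannot be told apart.

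miR-144 and miR-451a are cut from one primary transcript that the transcription factor GATA1 switches on in maturing red cells. miR-451a is trimmed from its hairpin after a cut by the Argonaute protein AGO2, without Dicer, and it stays abundant in circulating red cells, which have no nucleus. miR-486 lies within *Ank1*, the gene for the ankyrin of the red cell membrane skeleton, which striated muscle also expresses from a promoter of its own, so that miR-486 is known both as a red cell and as a muscle miRNA. miR-122 is by far the leading miRNA of hepatocytes, where it acts on lipid metabolism, and it is followed in plasma as a sign of liver damage.

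The mature sequences of the pair from the shared transcript are given first, since they show that the 3 products have seeds of their own. They are RefSeq sequences on GRCm38.p6, written 5′ to 3′ with the seed, bases 2 to 8, in capitals.
miR-451a: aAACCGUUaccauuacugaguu
miR-144-3p: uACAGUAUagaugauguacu
miR-144-5p: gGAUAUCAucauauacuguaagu
miR-101a-3p: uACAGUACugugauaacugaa
Sequences were matched for 3 of the 7 members. No 2 of these 3 share a seed. Among 1738 mature mouse sequences, bases 2 to 7 of miR-144-3p recur in miR-101a-3p alone, which departs from it at base 8, and bases 2 to 7 of miR-451a and miR-144-5p recur in no other.

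On GRCm38, the miR-144 hairpin lies on chromosome 11 (78073005 to 78073070, plus strand) and the miR-451a hairpin 99 bases downstream on the same strand (78073170 to 78073241). Neither overlaps another gene except *Mir451b*, annotated on the opposite strand at the same position as miR-451a, and the nearest other gene, *Eral1*, lies 134 bases from miR-451a. The hairpins, with the listed mature products in capitals, show how differently the products sit in them.
pre-miR-144: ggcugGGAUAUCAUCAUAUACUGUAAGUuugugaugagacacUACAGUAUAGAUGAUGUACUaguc
pre-miR-451a: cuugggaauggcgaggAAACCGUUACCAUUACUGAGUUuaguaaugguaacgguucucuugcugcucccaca
In the minimum free energy fold (RNAfold), miR-144-5p occupied bases 6 to 28 and miR-144-3p bases 43 to 62, on opposite sides of the stem. miR-451a occupied bases 17 to 38, of which 17 were paired on the 5′ side and 4 made up the whole terminal loop. For miR-451a 1 product is listed, whereas for miR-144 a product from each arm is listed. *Mir486* (chromosome 8, 23142555 to 23142682, plus strand) lies in an intron of *Ank1*. The hairpin of miR-486b, annotated as *Mir3107* (23142573 to 23142662, minus strand), lies wholly within the same stretch on the opposite strand.

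The deposited values are scaled reads, 1 unit being close to 1 read, with a total of 5741906 for the WT library and 4754677 for the KO library. By the one-sided 95% limit for a count of 0, a miRNA listed at 0 can be present at up to 3 reads, a share of up to 5.24e-05% in WT and 6.29e-05% in KO. All intervals below are 95% intervals for counting error, and they say nothing of the spread between animals. Setting both totals equal raises every log2 ratio by 0.27, and doing so without miR-143-3p, the most abundant entry, raises it by 0.17.

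All 7 members had a higher value in *Dnmt1*-KO than in *Dnmt1*-WT, against 50.9% of all mature entries, and the order of abundance changed below the first place. In *Dnmt1*-WT the order was miR-486a-5p, miR-451a, miR-486b-3p, miR-122-5p, miR-144-5p, miR-144-3p and miR-122-3p, in which the counting intervals of miR-486b-3p and miR-122-5p, of the 2 miR-144 arms, and of miR-144-3p and miR-122-3p overlapped. In *Dnmt1*-KO, miR-122-5p stood second, ahead of miR-451a, and the intervals of the 2 miR-144 arms overlapped. Together the members made up 0.225% of the WT values and 1.01% of the KO values. miR-486a-5p alone gave 97.6% of that sum in WT and 97.2% in KO. Of the 7, 5 were at least 2-fold higher in KO, including miR-122-3p, which was listed at 0 in WT and at 1.0 in KO. The share among all mature entries was 26.1%. With equal totals all 7 passed this fold (31.2% of all entries), and with equal totals without miR-143-3p 6 did (28.2%). Of entries with a mean over both libraries of at least 10, 4 of 6 members passed (11.4% of all), and from a mean of 100, 3 of 4 (6.39%). Nothing is read from these shares, since the members were picked for their values.

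**Figure D1:**
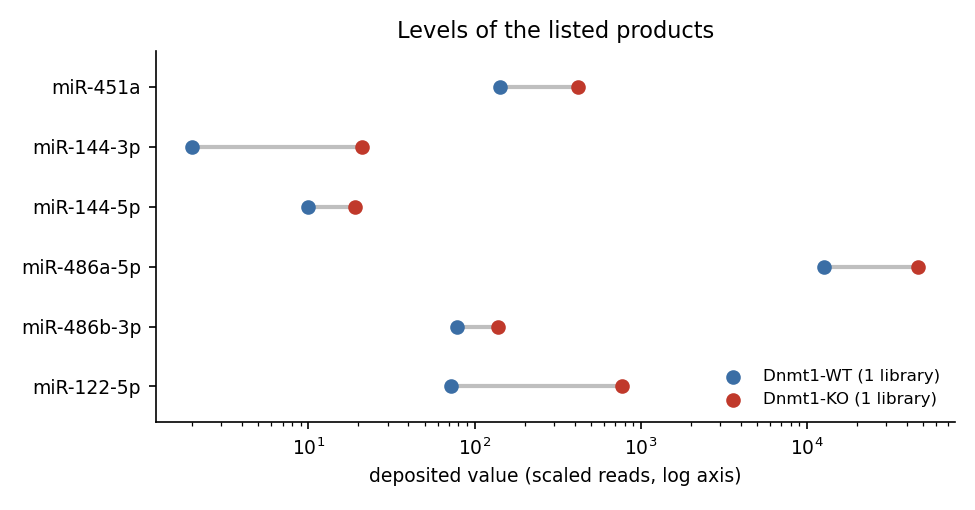
Deposited value (scaled reads, log axis) of each listed product above 0 in both libraries, in *Dnmt1*-WT (blue) and *Dnmt1*-KO (red), 1 library each. miR-486a-5p stands far to the right of the others in both libraries, and miR-122-5p passes miR-451a in KO.

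miR-451a, which dampens the signalling adaptor 14-3-3ζ in red cell precursors, was listed at 141.4 in *Dnmt1*-WT and 420.8 in *Dnmt1*-KO. The ratio was 2.98 (2.45 to 3.63), and its place among mature entries went from 277 to 181. It stayed a minor miRNA in both libraries, at 0.00246% and 0.00885% of the values. Of the 4 mature entries next to it in WT, 3 were lower in KO, with ratios from 0.704 (miR-196a-5p) to 0.782 (miR-669c-5p), and miR-184-3p was higher, with a ratio of 1.82.

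Its transcript partner miR-144 was close to the limit of detection. miR-144-3p, the arm that acts on the antioxidant regulator NRF2, was listed at 2.0 in *Dnmt1*-WT and 20.9 in *Dnmt1*-KO, a ratio of 10.45 whose interval ran from 2.55 to 91.8. miR-144-5p was listed at 10 and 19.0, a ratio of 1.90 (0.836 to 4.55) whose interval includes 1. The arms' own counting intervals overlapped in both libraries, so their order was not resolved. The ratio of the 3p arm was 5.5 times that of the 5p arm, but with an interval of 0.962 to 56.5 this difference was not detectable at this depth. Summed over both arms, miR-144 went from 12.0 to 39.9, a ratio of 3.33 (1.70 to 6.94). This stood at 1.12 times the ratio of miR-451a, with an interval of 0.554 to 2.40 that includes 1. The products of the shared transcript therefore differed in their summed ratios by less than counting error, while the interval also admits a difference of more than 2-fold.

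miR-101a-3p, which shares bases 2 to 7 with miR-144-3p, was far more abundant than it, at 1296 in *Dnmt1*-WT and 1168 in *Dnmt1*-KO (ratio 0.901, interval 0.831 to 0.975). With equal totals its ratio became 1.09.

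miR-486a-5p, which is known to target the transcription factor gene *Foxo1*, was the abundant member. It was listed at 12592 in *Dnmt1*-WT and 46756 in *Dnmt1*-KO, a ratio of 3.71 (3.64 to 3.79). It went from place 43 to place 20 among mature entries, and from 0.219% (0.215 to 0.223%) to 0.983% (0.975 to 0.992%) of the library. By level in WT it stood between miR-148a-3p and miR-103-3p above and miR-146a-5p and miR-23a-3p below, whose ratios were 1.98, 0.780, 1.26 and 0.727. The other listed product of the locus, miR-486b-3p, was listed at 78.2 and 137.6, a ratio of 1.76 (1.32 to 2.35). There were 161 values of miR-486a-5p to 1 of miR-486b-3p in WT and 340 to 1 in KO, a 2.11-fold difference (1.58 to 2.81). The copies lie on opposite strands of one stretch of DNA, and how the provider assigned reads of an arm that match both copies is not given in the sources used here, so which copy a read of either arm came from is uncertain. The mature entries held none named for the other arm of either copy.

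The miR-122 hairpin is annotated on the plus strand of chromosome 18, from 65248861 to 65248926, where it overlaps exonic sequence of the noncoding gene *AC157910.3*. miR-122-5p, its hepatocyte product, was listed at 72.2 in *Dnmt1*-WT and 769.8 in *Dnmt1*-KO, a ratio of 10.7 (8.37 to 13.8). It moved from place 331 to place 152, and from 0.00126% to 0.0162% of the library. Its other arm, miR-122-3p, did not pass 3 reads in either library, so no ratio is given for it.

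**Figure D2:**
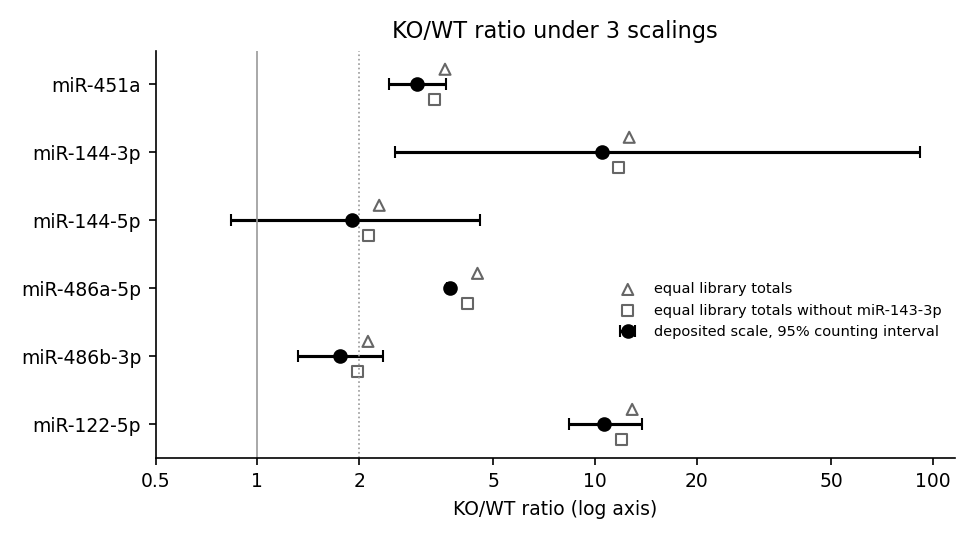
KO/WT ratio (log axis) of each listed product above 0 in both libraries on the deposited scale with its 95% counting interval (filled), with equal library totals (triangles) and with equal totals without miR-143-3p (squares). The solid line marks 1 and the dotted line 2. Among the 6 products shown, only the interval of miR-144-5p reaches below 1, and miR-144-3p has the widest.

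The question that bears on the red cell members is whether miR-486 followed miR-451a and miR-144 or exceeded them. Such a comparison sets 2 ratios within the same pair of libraries against each other, so it does not depend on how the libraries were scaled. There were 89.0 values of miR-486a-5p to 1 of miR-451a in *Dnmt1*-WT and 111 to 1 in *Dnmt1*-KO. The ratio of miR-486a-5p was therefore 1.25 times that of miR-451a, and the interval of 1.02 to 1.51 lies just above 1. With the ratio of miR-451a, miR-486a-5p would have stood at 37472 in KO, which is 19.9% less than the value listed. Against the sum of miR-451a and both miR-144 arms (153.4 in WT, 460.7 in KO) the excess was 1.24-fold (1.02 to 1.49). miR-451a gave 141.4 and 420.8 of that sum, so this largely repeats the comparison with miR-451a. For miR-144 itself the question stayed undecided at this depth. The ratio of miR-144-3p was 2.81 times that of miR-486a-5p, with an interval of 0.687 to 24.7 that includes equal ratios. The interval of the summed miR-144 ratio, 1.70 to 6.94, holds the 3.71 of miR-486a-5p. Unlike miR-486a-5p, miR-486b-3p fell below miR-451a, at 0.591 times its ratio (0.417 to 0.842). The 2 listed miR-486 products, which are opposite arms, thus lay on either side of miR-451a.

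The second question was whether miR-122 moved with the red cell miRNAs. miR-122-5p was higher in *Dnmt1*-KO as they were, but by more. There were 0.511 values of miR-122-5p to 1 of miR-451a in WT and 1.83 in KO, a 3.58-fold difference (2.61 to 4.94). With the ratio of miR-451a it would have stood at 215 in KO, 555 less than the value listed. Its ratio was 2.87 times that of miR-486a-5p (2.25 to 3.71). Set against miR-144-3p it was 1.02-fold, with an interval of 0.114 to 4.32 that leaves the comparison undetermined at 2 reads of miR-144-3p in WT.

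**Figure D3:**
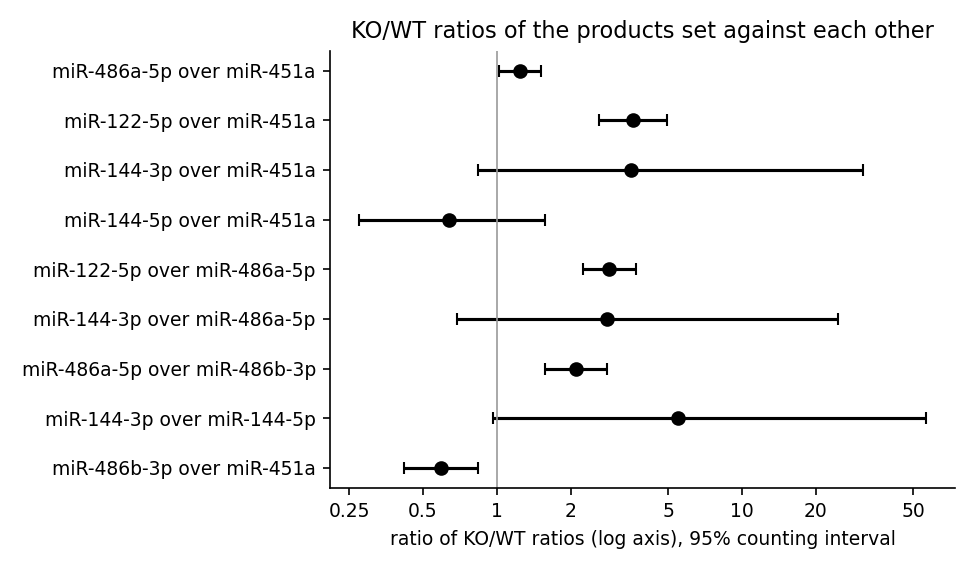
Ratio of the KO/WT ratios of 2 listed products (log axis) with the 95% counting interval, 1 library per genotype. The line marks equal ratios. miR-486a-5p lies just above miR-451a, miR-122-5p lies well above both, and every pair with a miR-144 arm has an interval that includes 1.

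Of the 313 mature entries with a mean of at least 100, ordered from the highest KO/WT ratio down, miR-122-5p was at place 4, miR-486a-5p at 8, miR-451a at 9 and miR-486b-3p at 30. The other 3 members were below this level, and these places follow from how the members were picked. Among these 313, the entries nearest in ratio to miR-451a were miR-146b-5p (1864 and 5307, ratio 2.85), miR-10b-5p (44849 and 127180, ratio 2.84) and miR-214-3p (897 and 2489, ratio 2.78). Those nearest to miR-486a-5p among the 313 were miR-148a-5p (55.2 and 249.3, ratio 4.52), miR-451a itself and miR-146b-5p. Less abundant entries, some of them nearer to it, were not ranked. This likeness rests on 2 libraries.

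**Figure D4:**
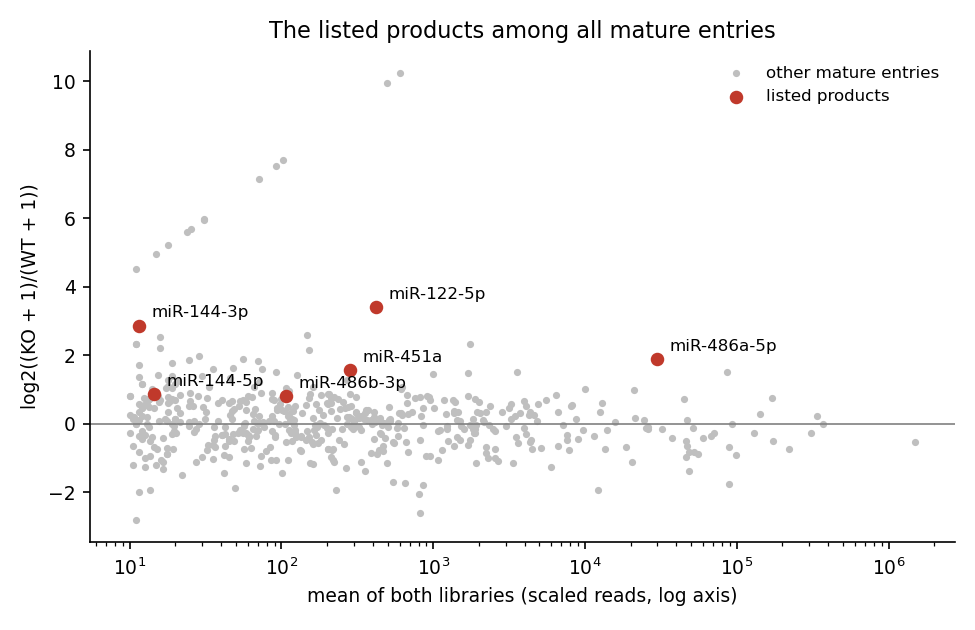
log2((KO + 1)/(WT + 1)) against the mean of both libraries (scaled reads, log axis) for the 534 mature entries with a mean of at least 10, with the listed products in red. No other entry with a mean as high as that of miR-486a-5p has as high a ratio, while miR-144-5p and miR-486b-3p lie within the upper part of the cloud.

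To set the members beside other miRNAs of the same cells, lists of miRNAs known from blood, liver and muscle were followed on log2((KO + 1)/(WT + 1)) for entries with a mean of at least 10. Over all 534 such entries the median was 0.06 and 52.2% were higher in *Dnmt1*-KO. The 6 members at this level had a median of 1.73, which follows from how they were picked, so nothing is read from its height.

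The other miRNAs that are abundant in red cells but also in most tissues had a negative median under every scaling, below that of all entries. How many of them were higher in *Dnmt1*-KO depended on the scaling. Of 16, 3 were higher and 13 lower in *Dnmt1*-KO, with a median of -0.28 and none at a 2-fold difference (11.4% of all entries at this level were 2-fold higher and 8.99% 2-fold lower). With equal totals 8 were higher and 8 lower, with a median of -0.0084, against 66.9% higher over all entries at this level, and 1, miR-363-3p, reached 2-fold (19.7% of all). miR-16-5p, which restrains the cell cycle, went from 108958 to 67965 (ratio 0.624), miR-92a-3p of the miR-17-92 cluster from 26997 to 25082 (0.929), miR-191-5p from 53796 to 48956 (0.910) and miR-22-3p from 77462 to 64815 (0.837). Under that scaling the last 3 stood at 1.12, 1.10 and 1.01 and miR-16-5p at 0.753. Of the less abundant ones, miR-25-3p had a ratio of 1.05 (1.01 to 1.10), the only one with a mean of at least 1000 that was higher in KO as deposited. The ratios of miR-425-5p, miR-15b-5p, miR-93-5p and miR-107-3p were 0.976, 0.904, 0.601 and 0.584, and that of miR-103-3p is given above. The ratio of miR-451a was 4.77 times that of miR-16-5p (3.93 to 5.82). miR-363-3p and miR-20b-5p, at means of 12.5 and 12.0, had ratios of 1.78 and 1.40 whose intervals include 1.

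miRNAs of white blood cells and platelets were higher together with the members. All 9 were higher in *Dnmt1*-KO, 3 of them at least 2-fold (11.4% of all entries at this level), with a median of 0.79. With equal totals 5 of the 9 were at least 2-fold higher (19.7% of all). miR-223-3p, the leading miRNA of neutrophils, went from 158.5 to 385.9 (ratio 2.43, interval 2.02 to 2.95), close to miR-451a in level and in ratio. The ratio of miR-451a was 1.22 times that of miR-223-3p (0.929 to 1.61), and that of miR-486a-5p was 1.53 times it (1.26 to 1.84). The most abundant ones differed less, with ratios of 1.26 for miR-146a-5p, 1.27 for the endothelial and platelet miRNA miR-126a-3p, and 1.20 for miR-342-3p. miR-142a-5p, found in all blood lineages, had a ratio of 5.01, but the other arm of its hairpin, miR-142a-3p, had one of 1.82 (1.44 to 2.33). Whether blood cells held in the tissue had a part in the values of miR-451a and miR-486a-5p was not tested.

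The other miRNAs enriched in liver had ratios well below that of miR-122-5p. Of 8, 3 were higher and 5 lower, with a median of -0.05 (52.2% of all entries were higher), and none reached a 2-fold difference, which 11.4% of all reached upward and 8.99% downward. With equal totals the tally turned to 7 higher and 1 lower, with a median of 0.22, while all entries moved to a median of 0.33 with 66.9% higher. Under that scaling miR-192-5p (2.16) and miR-148a-3p (2.40) passed 2-fold, as did 19.7% of all. Both passed it without miR-143-3p in the totals as well, at 2.02 and 2.23, as did 83 of all 534 entries at this level. miR-192-5p and miR-148a-3p, which the gut also expresses, had ratios of 1.79 and 1.98 as deposited, while miR-194-5p, miR-215-5p and miR-101a-3p stood at 0.958, 0.977 and 0.901. The ratio of miR-122-5p was 5.95 times that of miR-192-5p (4.66 to 7.71). None of these 8 is restricted to hepatocytes, so miR-122-5p was the only liver-restricted miRNA among those followed.

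Striated muscle is the other tissue known for miR-486, and the miRNAs listed for it with a mean of at least 10 were lower in *Dnmt1*-KO. The list does not stand for striated muscle alone, since its leading entry, miR-133a-3p, is also a smooth muscle miRNA and was far above miR-1a-3p (124.4 in WT and 58.8 in KO), with which it shares primary transcripts. All 4 with a mean of at least 10 were lower, with a median of -1.39, against 252 of all 534 entries at this level. Of the 4, 3 were at least 2-fold lower (8.99% of all). With equal totals 2 of the 4 were, against 23 of the 534. miR-133a-3p went from 137241 to 40502 (ratio 0.295) and miR-208b-3p, which lies within a myosin heavy chain gene, from 992.8 to 301.2 (ratio 0.303, interval 0.266 to 0.345). The ratio of miR-486a-5p was 12.6 times that of miR-133a-3p (12.3 to 12.9) and 12.2 times that of miR-208b-3p (10.7 to 14.0). Whether striated muscle had a part in the values of miR-486a-5p was not tested. Below this level, miR-499-5p was listed at 6.0 and 2.0 and miR-208a-3p at 0 and 1.0. The 4 smooth muscle products of miR-143 and miR-145a were lower as well (252 of all 534 entries were), with a median of -1.01. Of these 4, 2 were at least 2-fold lower, against 8.99% of all, and 2 with equal totals, against 23 of the 534. The ratios were 0.694 for miR-143-3p, 0.259 for miR-143-5p, 0.598 for miR-145a-5p and 0.413 for miR-145a-3p.

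**Figure D5:**
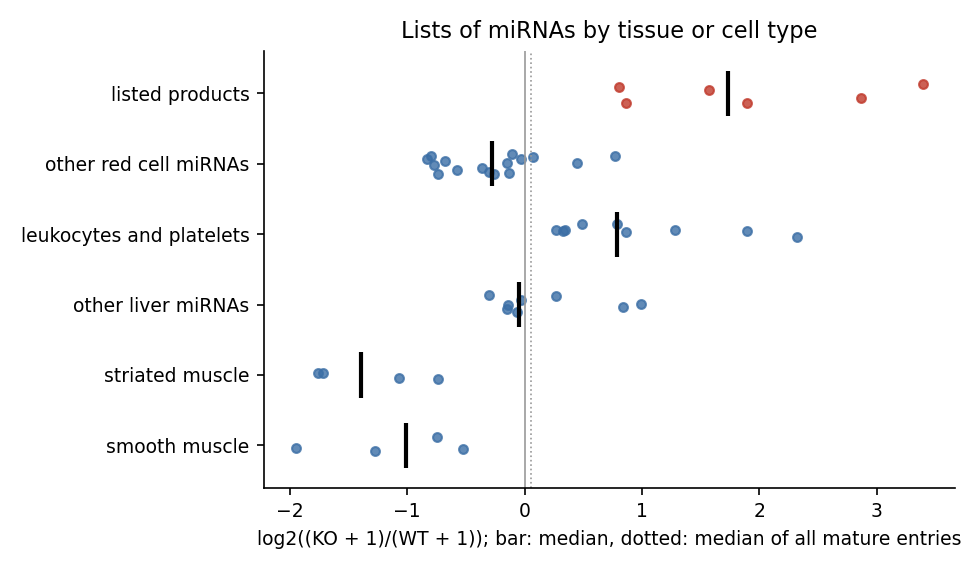
log2((KO + 1)/(WT + 1)) of the listed products (red) and of the miRNAs of each list (blue) with a mean of at least 10, with the median as a bar, a solid line at 0 and a dotted line at the median of all mature entries. The listed products, which were picked for their values, and the leukocyte and platelet miRNAs lie to the right of 0. Both muscle lists, of which the first is led by miR-133a-3p, lie to the left.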

How the data were processed

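Small RNA was isolated with a mirVana kit and turned into libraries by the TruSeq small RNA protocol (labels), and a commercial provider sequenced and annotated it (the study's methods). The submitters' processing notes name Bowtie and mm10. The miRNA release, the treatment of reads with several matches and the scaling are not given in the sources used here.

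The authors deposited 1 value per miRNA and library, with 1 decimal. Of the values from 20 to 300, 88.6% (WT) and 91.1% (KO) were multiples, within 0.06, of a step of 1.00284 and 0.99718, and dividing by it gave the implied reads, rounded. The median KO/WT ratio of the 794 entries above 0 in both libraries was 1. A column with the authors' own fold change was not used.

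For ratios, the KO share of implied reads was given an exact (Clopper-Pearson) interval and converted. Ratios of ratios carry the exact conditional interval of the odds ratio (scipy 1.17.1). No molecular identifiers were used, so intervals cover counting error only. With 1 library per genotype no p-value was computed. The code was tested on simulated data. Places are from GENCODE M21 and sequences from RefSeq, folded with ViennaRNA 2.7.2.

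The members and lists were chosen with earlier results of these data known. miRNAs named beside the members are those with the nearest ratio among means of at least 100 (3 each for miR-451a and miR-486a-5p), the 2 above and 2 below these by level in WT, those members of the lists whose mean reached 1000, and those sharing bases 2 to 7. Other list members were named after their values were seen. Alternatives were other scalings, pseudocounts, minimum means, summed products and another red cell reference.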

Additional observations from a re-analysis of the deposited data

How the results depend on the processing

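All 6 member ratios above 0 in both libraries kept their direction under every alternative. Equal totals moved the ratio of miR-486a-5p to 4.48 (4.18 if miR-143-3p was kept out of the totals); the other scaled ratios of miR-451a, miR-144-3p and miR-122-5p stayed within their counting intervals. The excess of miR-486a-5p over miR-451a ran from 1.24 to 1.25 and that of miR-122-5p from 3.55 to 3.58. These alternatives could hardly move them, since miR-486a-5p and miR-451a make up most of the summed products. miR-486b-3p taken alone stood at 0.591 times the ratio of miR-451a (0.417 to 0.842). Of the 7 members, 5 were at least 2-fold higher, 7 with equal totals and 6 without miR-143-3p in the totals. At a mean of at least 100, where fewer members count, 3 were. Counting only those above 0 in both libraries, a choice made after seeing the data, gave 4. No share over all entries was taken for that last count, and nothing is read from it. The median of the other liver miRNAs, -0.05, reversed to 0.22 and 0.12 under these 2 scalings. By the same scalings the other red cell list moved to -0.0084 and -0.11, leukocytes and platelets to 1.06 and 0.96, striated muscle to -1.12 and -1.22, and smooth muscle to -0.74 and -0.84, and all mature entries had medians of 0.33 and 0.23. A mean of at least 100 moved leukocytes and platelets to 0.64 and striated muscle to -1.72, as low entries drop out, and no minimum moved striated muscle to -1.15, as others enter. No paired analysis was possible because there was 1 library per genotype. Depth limits the miR-144 arms and miR-122-3p most.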
